A study of Mus musculus with 11 samples.

Results

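The genes described here encode the ligands, receptors, antagonist and a target of TGF-beta and activin signalling in the developing mouse mandibular arch. They are Tgfb1, Tgfb2, Tgfb3, Inhba, Inhbb, Tgfbr1, Tgfbr2, Tgfbr3, Fst and Tgfbi, and they were chosen by name. The choice was made with earlier results of these data known, so the members' counts beside shares of all genes are a description. Every probe set that carried 1 of these symbols alone in the array annotation was taken, which gave 25 probe sets for 10 genes among the 18194 named genes of the array. All 10 members were among the 11968 genes bright enough to be tested.

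The tissue came from the mandibular arch of embryos of ICR mice, an outbred stock without any engineered allele or treatment named in the labels, and RNA was measured on 11 Affymetrix arrays. The medial piece was the distal end of the arch, where the paired swellings that form the tongue meet, and the lateral piece was the tissue that remained. Medial tissue was sampled at E9.7 (1 array), E10.5 (3 arrays), E11.5 (2 arrays) and E14.5 (1 array), and lateral tissue at E9.7 (1 array) and E10.5 (3 arrays). RNA was pooled from 40 embryos, and 3 ug was labelled per array. The E14.5 array was labelled as tongue, anterior part, so it differs from the E11.5 arrays in stage and in the tissue taken. The labels do not say whether replicate arrays came from separate pools, so a p-value here reflects array-to-array spread that may be only technical.

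TGF-beta proteins are secreted in a latent form, are released in the matrix and bind the receptor Tgfbr2, which then activates Tgfbr1. Activins, dimers of the products of Inhba and Inhbb, use related receptors, and both branches act through Smad2 and Smad3 joined to Smad4. In mice this pathway is needed for the jaw, the palate, the teeth and the tongue: loss of Tgfbr2 in neural crest cells causes cleft palate and jaw defects, and loss of Inhba stops incisors and lower molars from forming.

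Values are log2 signals brought to a common distribution over the 11 arrays by quantile normalization, so 1 unit is a 2-fold difference. Each gene is given by its brightest probe set unless another is named, and levels of different probe sets are not compared. In the deposited values, replicate 1 of medial E10.5 had a median of 2.37 and replicate 1 of medial E11.5 had 2.47, against 5.20 to 5.73 on the other 9 arrays. Results that rest on these 2 arrays are given with and without them. A gene was called where the adjusted p was under 0.05 (limma, Benjamini-Hochberg over 11968 genes). The 11 arrays fell into 4 groups by the signals of 45 spike-in control probe sets. Group 1 held the pair of E9.7 arrays, replicate 1 of lateral E10.5 and replicate 2 of medial E10.5 and of medial E11.5. Group 2 held replicate 3 of medial E10.5 with lateral replicates 2 and 3 of that stage. Group 3 was the 2 arrays of low signal and group 4 the E14.5 array, and the labels name no batch to match them to.

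The promoter windows of Tgfb2 and Tgfbi are shown because these genes rose in both tested comparisons below, and that of Tgfb1 because this ligand did not. Fst rose in both too, and its gene lies at chr13:114452262-114458989. RefSeq windows (build GRCm38.p6, 250 bases before to 50 after the start site) were found for 7 of the 10 members. Capitals mark matches on either strand to CAGAC, the core that Smad proteins bind, to TATAAA, the TATA box, or to GGGCGG, a GC box that Sp1 proteins bind; matches of different motifs do not overlap in these windows.
Tgfb2, chr1:186705940-186706239, minus strand: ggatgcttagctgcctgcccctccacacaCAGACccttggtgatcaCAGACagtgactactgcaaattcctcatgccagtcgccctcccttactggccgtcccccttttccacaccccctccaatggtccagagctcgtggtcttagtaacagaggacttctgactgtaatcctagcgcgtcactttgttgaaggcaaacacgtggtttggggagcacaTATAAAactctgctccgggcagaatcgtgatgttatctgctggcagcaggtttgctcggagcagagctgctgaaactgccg
Tgfbi, chr13:56609336-56609635, plus strand: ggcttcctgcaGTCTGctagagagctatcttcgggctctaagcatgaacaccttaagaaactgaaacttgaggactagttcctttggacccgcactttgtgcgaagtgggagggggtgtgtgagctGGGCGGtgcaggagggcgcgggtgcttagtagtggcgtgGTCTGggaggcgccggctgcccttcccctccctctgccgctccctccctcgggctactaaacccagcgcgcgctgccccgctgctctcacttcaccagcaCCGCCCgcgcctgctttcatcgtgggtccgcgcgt
Tgfb1, chr7:25686752-25687051, plus strand: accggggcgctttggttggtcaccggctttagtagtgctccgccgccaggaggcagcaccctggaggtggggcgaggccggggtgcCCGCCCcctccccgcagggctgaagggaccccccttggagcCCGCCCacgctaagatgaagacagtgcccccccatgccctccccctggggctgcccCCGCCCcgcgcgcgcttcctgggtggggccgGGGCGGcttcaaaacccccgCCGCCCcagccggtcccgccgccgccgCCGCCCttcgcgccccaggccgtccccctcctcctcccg
The Tgfb2 window held CAGAC at 2 places and 1 TATAAA, whose first base lay at -31 from the start site of that window. The Tgfb2 gene spans chr1:186622787-186709697, so on the minus strand this window lies inside the gene and not at its outermost start. The Tgfbi window held CAGAC at 2 places and GGGCGG at 2, and the Tgfb1 window held GGGCGG at 6 and neither of the others. Of the windows not shown, those of Tgfbr2 and of Tgfbr1 at chr4:47385966 held CAGAC at 1 place each. The windows of Inhba, of Inhbb and of Tgfbr1 at chr4:47352972 held no CAGAC. Among all 32851 windows of this length, 49.6% held CAGAC, 13.6% held TATAAA and 35.7% held GGGCGG, and a match is a description of the letters and not a binding site.

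**Figure D1:**
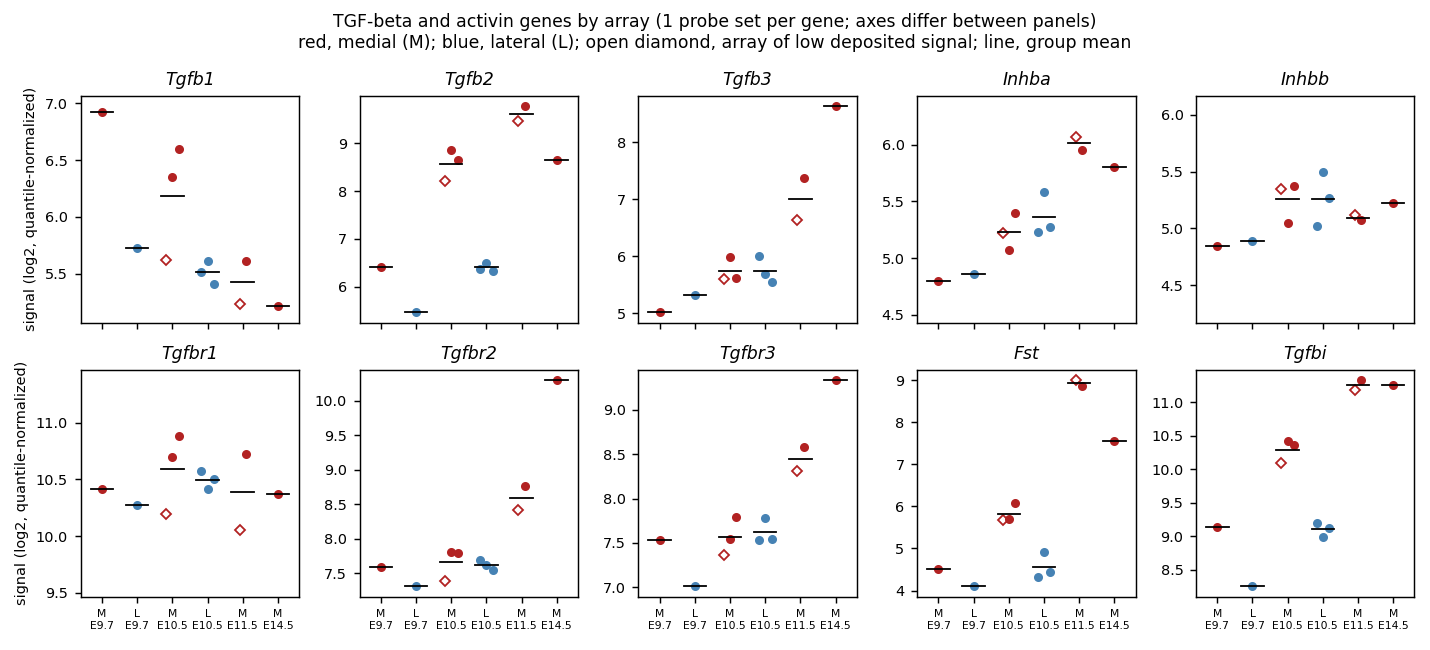
Signal of each member (log2, quantile-normalized, y axis) on every array, by tissue and stage (x axis); points are arrays, lines are group means, and open diamonds are the 2 arrays of low deposited signal. Tgfb2, Tgfbi and Fst lie higher in medial (M) than in lateral (L) tissue at E10.5, and Tgfb3 and Tgfbr2 are highest at E14.5.

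The first question of the design was how medial tissue differed from lateral tissue at E10.5. Tgfb2, Tgfbi and Fst were higher in medial tissue, by 4.50-fold, 2.28-fold and 2.40-fold, and no member was called lower. These 3 of 10 members stand beside 4.63% of all tested genes called in either direction and 2.82% called higher. The median difference of the 10 members was 0.07, against -0.01 over all tested genes. At an unadjusted p under 0.05, 4 members were higher and 0 lower.

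Among the ligands, Tgfb2, which mice need for normal jaw and palate bones, measured 8.21, 8.86 and 8.66 in medial tissue, against 6.38, 6.504 and 6.34 in lateral tissue. The medial arrays all lay above the lateral ones, on average by 2.17 ± 0.17 (log2 difference ± SE, adjusted p = 0.000239). It was called with each of its 4 probe sets, at differences of 1.34 to 2.17, where 3.51% of 21330 tested probe sets were called after adjustment over all of them. Between arrays alike in spike-in signal, the difference was 2.48 in group 1 and 2.24 in group 2.

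Tgfb1, the ligand best known for restraining immune cells and acting in blood vessels, measured 5.62, 6.35 and 6.60 in medial tissue, against 5.52, 5.62 and 5.41 in lateral tissue. Its difference of 0.67 ± 0.23 did not pass the test (adjusted p = 0.184), although its medial arrays lay above its lateral ones. Such a separation was seen for 4 of 10 members, all higher in medial tissue, and for 25% of all tested genes. The medial array of low signal was the lowest of the 3, and without it the difference was 0.96 (adjusted p = 0.00969). Within spike-in groups 1 and 2 it was 0.83 and 1.08. The other Tgfb1 probe set, 1445360_at, was too dim to test and averaged 4.09 in medial and 4.05 in lateral tissue.

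Tgfb3, which the palatal shelves of mice need to fuse, did not separate the tissues: it averaged 5.74 ± 0.22 in medial and 5.75 ± 0.23 in lateral tissue (SD, n = 3 each). The 95% interval of the difference ran from -0.49 to 0.47. The activin subunit genes were not called either. Inhba averaged 5.23 ± 0.16 in medial and 5.36 ± 0.19 in lateral tissue, with an interval of -0.44 to 0.18. Inhbb averaged 5.25 ± 0.18 in medial and 5.26 ± 0.24 in lateral tissue, with an interval of -0.34 to 0.33.

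The 3 receptors were not called between the tissues at E10.5. Tgfbr1, the receptor that phosphorylates Smad2 and Smad3, averaged 10.59 ± 0.36 in medial and 10.498 ± 0.08 in lateral tissue, with an interval of the difference from -0.39 to 0.58. Tgfbr2, which binds the ligand, averaged 7.67 ± 0.24 in medial and 7.62 ± 0.07 in lateral tissue (interval -0.29 to 0.38). Tgfbr3, the co-receptor betaglycan that presents TGF-beta2, averaged 7.57 ± 0.21 in medial and 7.62 ± 0.14 in lateral tissue (interval -0.38 to 0.28). All of these intervals leave out a 2-fold difference of the used probe set in either direction. Among dimmer probe sets, none called, the intervals of 1420894_at of Tgfbr1 (-1.27 to 0.30) and 1425444_a_at of Tgfbr2 (-1.20 to 0.23) did not. Those of 1420893_a_at of Tgfbr1 (-0.43 to 0.58) and 1425620_at of Tgfbr3 (-0.82 to 0.23) did.

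Fst encodes follistatin, a secreted protein that binds activins and keeps them from their receptors. It measured 5.69, 5.69 and 6.08 in medial tissue, against 4.31, 4.92 and 4.44 in lateral tissue, and the arrays did not overlap. The difference was 1.27 ± 0.18 (adjusted p = 0.00385), and within spike-in groups 1 and 2 it was 1.38 and 1.41. On 2 of the 3 lateral arrays Fst lay below 4.86, the level set for testing. The other Fst probe set, 1434458_at, measured 4.03, 5.90 and 5.75 in medial tissue, against 3.88, 3.71 and 3.43 in lateral tissue. Its difference of 1.55 ± 0.43 was not called (adjusted p = 0.103), and its medial array of low signal lay far below the other medial arrays.

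Tgfbi, a secreted matrix protein named for its induction by TGF-beta, measured 10.10, 10.43 and 10.36 in medial tissue, against 9.21, 8.99 and 9.13 in lateral tissue. Every medial array lay above every lateral array, and the difference was 1.19 ± 0.13 (adjusted p = 0.000936). Of its 4 probe sets, 3 were called higher in medial tissue, and the remaining one, 1437463_x_at, differed by 0.84 ± 0.24 (adjusted p = 0.128).

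The same 3 members stayed called when any array of the comparison was left out. Without the arrays of low signal, Tgfb1 joined them, for 4 called members. On the values as deposited, with the array medians given above, limma called 0 of 10 members, and 0 had an unadjusted p under 0.05.

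Some cell type markers also differed between medial and lateral tissue at E10.5. Of 12 epithelial markers, 8 were called higher in medial tissue, and their summed linear signal was 3328 to 3666 in medial against 1890 to 2021 in lateral arrays. Of 8 endothelial markers, 3 were called higher, with sums of 1483 to 1538 in medial against 1074 to 1102 in lateral arrays. Of 8 genes of cranial neural crest mesenchyme in the mandibular arch, 3 were called higher and 1 lower, with sums of 10497 to 11612 in medial against 8656 to 9158 in lateral arrays, and all 8 lay above 4.86 in medial tissue against 7 in lateral tissue. Of 8 muscle markers, 1 was called higher and 1 lower, with sums of 284 to 343 in medial against 326 to 404 in lateral arrays. By limma at an unadjusted p under 0.05, 1 muscle marker was higher and 4 were lower. None of the 4 tested red cell markers, 6 macrophage markers or 4 nerve markers was called by limma, and 0, 1 and 1 of them had an unadjusted p under 0.05. The part of the marker differences in the values of Tgfb1, Tgfb2, Fst and Tgfbi was not tested, and in bulk tissue fewer cells of a type and less RNA per cell cannot be told apart.

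**Figure D2:**
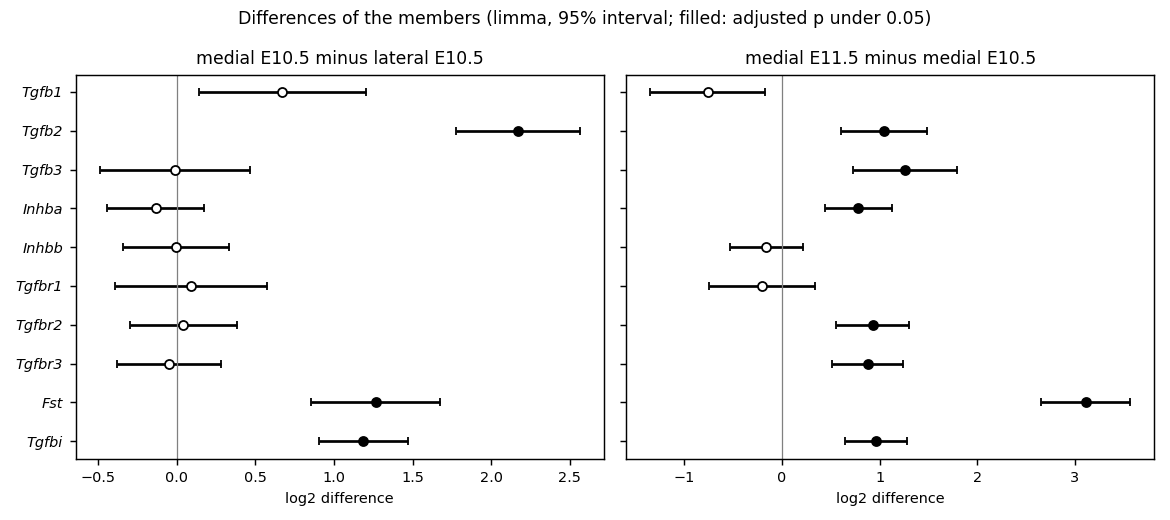
Log2 difference of each member (x axis) in the 2 tested comparisons, medial minus lateral at E10.5 on the left and medial E11.5 minus medial E10.5 on the right; points are limma estimates, bars are 95% intervals, and filled points have an adjusted p under 0.05. Tgfb2, Fst and Tgfbi are filled on the left, and 7 of 10 members are filled on the right, with Fst at 3.11.

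The second question was how medial tissue changed by E11.5. Fst rose 8.65-fold, and Tgfb2, Tgfb3, Tgfbr2, Tgfbr3, Tgfbi and Inhba rose by 1.72-fold to 2.40-fold. These 7 of 10 members stand beside 6.92% of all tested genes called and 4.32% called higher. No member was called lower, and 1, Tgfb1, was lower at an unadjusted p under 0.05. The members' median difference was 0.90, against 0.003 over all tested genes. This comparison and the previous one share the 3 medial E10.5 arrays.

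Fst measured 9.004 and 8.86 at E11.5, against 5.69, 5.69 and 6.08 at E10.5, a difference of 3.11 ± 0.20 (adjusted p = 3.88e-05). The later arrays all lay more than 2 units above the earlier ones. Its other probe set gave 8.99 and 9.20 at E11.5, against 4.03, 5.90 and 5.75 at E10.5, a difference of 3.87 ± 0.48 (adjusted p = 0.00148). Both probe sets were thus called, where 5.09% of all probe sets were. Within spike-in groups 1 and 3 the difference of the used probe set was 3.17 and 3.32.

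Of the TGF-beta ligands, Tgfb3 measured 6.63 and 7.37 at E11.5, against 5.61, 5.99 and 5.62 at E10.5 (difference 1.26 ± 0.24, adjusted p = 0.0122). Tgfb2 measured 9.46 and 9.78 at E11.5, against 8.21, 8.86 and 8.66 at E10.5 (difference 1.05 ± 0.19, adjusted p = 0.0121). Neither gene's arrays overlapped between the stages, and 3 of the 4 Tgfb2 probe sets were called. The fourth, 1450922_a_at, differed by 0.68 ± 0.38 (adjusted p = 0.463).

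Tgfb1 was lower on average, with 5.24 and 5.62 at E11.5, against 5.62, 6.35 and 6.60 at E10.5. Its difference of -0.76 ± 0.26 was not called (adjusted p = 0.146). Without medial E10.5 replicate 1 it was -1.05 (adjusted p = 0.00793), and within spike-in groups 1 and 3 it was -0.73 and -0.38. Non-overlap of the arrays, which Tgfb1 and the 7 called members showed, was found for 28.4% of all tested genes.

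Inhba, the subunit of activin A, measured 6.07 and 5.96 at E11.5, against 5.22, 5.08 and 5.40 at E10.5 (difference 0.78 ± 0.15, adjusted p = 0.0146). Its E11.5 arrays both lay above the E10.5 arrays. The other Inhba probe set, 1458291_at, was too dim to test, with means of 3.28 at E11.5 and 3.36 at E10.5. The call of Inhba thus rests on 1422053_at. Inhbb, the subunit of activin B, averaged 5.09 ± 0.03 at E11.5 (SD, n = 2) and 5.25 ± 0.18 at E10.5 (SD, n = 3), with an interval of the difference from -0.54 to 0.22.

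Of the receptor genes, Tgfbr2 and Tgfbr3 rose and Tgfbr1 was not called. Tgfbr2 measured 8.42 and 8.76 at E11.5, against 7.39, 7.81 and 7.80 at E10.5 (difference 0.93 ± 0.17, adjusted p = 0.0104). Tgfbr3 measured 8.32 and 8.58 at E11.5, against 7.37, 7.55 and 7.80 at E10.5 (difference 0.88 ± 0.16, adjusted p = 0.0116). Both sets of arrays were apart between the stages. Tgfbr1 measured 10.05 and 10.72 at E11.5, against 10.19, 10.70 and 10.88 at E10.5, and the arrays overlapped (difference -0.20 ± 0.24, interval -0.74 to 0.34). None of its 3 probe sets was called. For Tgfbr2 a dimmer probe set, 1425444_a_at, differed by 0.16 ± 0.35 and was not called (adjusted p = 0.908), so the call of this gene rests on 1426397_at. The dimmer Tgfbr3 probe set, 1425620_at, differed by 0.67 ± 0.26 (adjusted p = 0.238).

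Tgfbi measured 11.18 and 11.34 at E11.5, against 10.10, 10.43 and 10.36 at E10.5 (difference 0.96 ± 0.14, adjusted p = 0.00316). Its arrays did not overlap, and 2 of its 4 probe sets were called.

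The call of Fst and of Tgfbi held when each array was left out in turn, whereas the count of called members ranged from 2 to 8. With each array centred on its median in place of quantile normalization, Tgfb2, Tgfb3 and Fst were called, and Tgfbi (0.90, adjusted p = 0.0812), Tgfbr2, Tgfbr3 and Inhba were not. Without medial E11.5 replicate 2, which leaves the E11.5 array of low signal alone, Tgfb2 (0.89), Tgfb3 (0.89), Tgfbr2 (0.76), Tgfbr3 (0.74) and Inhba (0.84) were no longer called. Inhba also missed the threshold without medial E10.5 replicate 2 (adjusted p = 0.0532) and without medial E11.5 replicate 1 (adjusted p = 0.0869). Without the 2 arrays of low signal, 7 members were called, among them 6 of those 7; Inhba was lost (0.72, adjusted p = 0.116) and Tgfb1 was called lower (-0.86, adjusted p = 0.0320). Where E11.5 was left with 1 array, that array was assumed to vary like the other groups. Within each of the 2 spike-in groups that held both stages, the 7 called members were higher at E11.5, by 0.85 or more.

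Markers of other cell types shifted strongly between these stages. Of 8 muscle markers, 7 were called higher at E11.5, and their summed linear signal was 5773 to 7267 at E11.5 against 284 to 343 at E10.5; all 8 lay above 4.86 at E11.5 against 4 at E10.5. Of 12 epithelial markers, 10 were called lower, with sums of 1714 to 1773 at E11.5 against 3328 to 3666 at E10.5. Of 8 genes of arch neural crest mesenchyme, 6 were called lower and 1, Pdgfra, higher (11.20 at E11.5, 10.52 at E10.5). Their sums were 5300 to 6461 at E11.5 against 10497 to 11612 at E10.5. Endothelial markers were called lower for 2 of 8, macrophage markers higher for 3 of 6, the red cell markers lower for 1 of 4 and the nerve markers higher for 1 of 4. The part of these shifts in the rise of the members was not tested, and here too cell number and RNA per cell cannot be told apart.

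Comparisons with 1 array on a side were described without a test, by counting the genes whose arrays were all apart from those of the other group by 2-fold or more. At E9.7, Tgfb1 passed that fold, with 6.93 in medial and 5.73 in lateral tissue. It was the only one of the 9 members bright enough to be counted to do so, beside 1.09% of genes higher. The dim Tgfb1 probe set, 1445360_at, measured 3.93 in medial and 3.76 in lateral tissue, so this difference rests on 1420653_at. Tgfb2 measured 6.41 in medial and 5.47 in lateral tissue, and Tgfbi 9.14 in medial and 8.26 in lateral tissue, both below 2-fold. Epithelial markers summed to 4924 in medial and 2852 in lateral tissue at this stage, and endothelial markers to 2062 in medial and 1205 in lateral tissue; their part in these values was not tested.

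In medial tissue Tgfb2 was 2.17 and Fst 1.30 higher at E10.5 than at E9.7, and these 2 of 10 members passed 2-fold, beside 0.626% of genes higher. All 4 Tgfb2 probe sets passed, at 1.58 to 2.39. The used Fst probe set measured 4.52 in medial tissue at E9.7, below the level set for testing. The other Fst probe set, 1434458_at, averaged 1.57 higher at E10.5 but did not pass. On that probe set the medial E10.5 array of low signal measured 4.03, against 3.65 at E9.7. Tgfbi averaged 1.15 higher at E10.5, but its array of low signal lay less than 1 unit above the E9.7 array; without that array 3 members passed. In lateral tissue none of the 10 members passed 2-fold by its used probe set over the same interval, beside 0.949% of genes higher. Tgfb2 differed by 0.94, Tgfbi by 0.85 and Fst by 0.45. Other Tgfbi probe sets did pass in lateral tissue, 1437463_x_at at 1.22 and 1456250_x_at at 1.44. In medial tissue 1456250_x_at passed at 1.497, and 1437463_x_at averaged 1.18 higher but did not pass. The probe set 1415871_at passed in neither tissue (1.24 in medial, 0.96 in lateral). Whether the stage difference differs between medial and lateral tissue was not tested, since each E9.7 group is 1 array.

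At E14.5, in tissue labelled as tongue, Tgfbr2 measured 10.30, against 8.42 and 8.76 at E11.5. Tgfb3 measured 8.64 at E14.5, against 6.63 and 7.37 at E11.5. These were the 2 members more than 2-fold higher, beside 11% of genes, and Fst (7.54 at E14.5, against 9.004 and 8.86 at E11.5) was the 1 member more than 2-fold lower by its used probe set, beside 3.63% of genes; its other probe set differed by 0.47. Muscle markers summed to 29921 at E14.5, against 5773 to 7267 at E11.5, and epithelial markers to 6876, against 1714 to 1773. The red cell markers summed to 5680 at E14.5, against 22764 to 26050 at E11.5. They moved unevenly: Hbb-bh1 was 5.36 at E14.5 and 12.62 at E11.5, and Hba-x 8.19 and 12.68. Hbb-y was 12.35 at E14.5 and 13.46 at E11.5, and Alas2 6.76 and 7.27, so the sum is no measure of red cell number. Stage, dissected tissue and spike-in group cannot be told apart in this comparison, and the part of the markers was not tested.

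**Figure D3:**
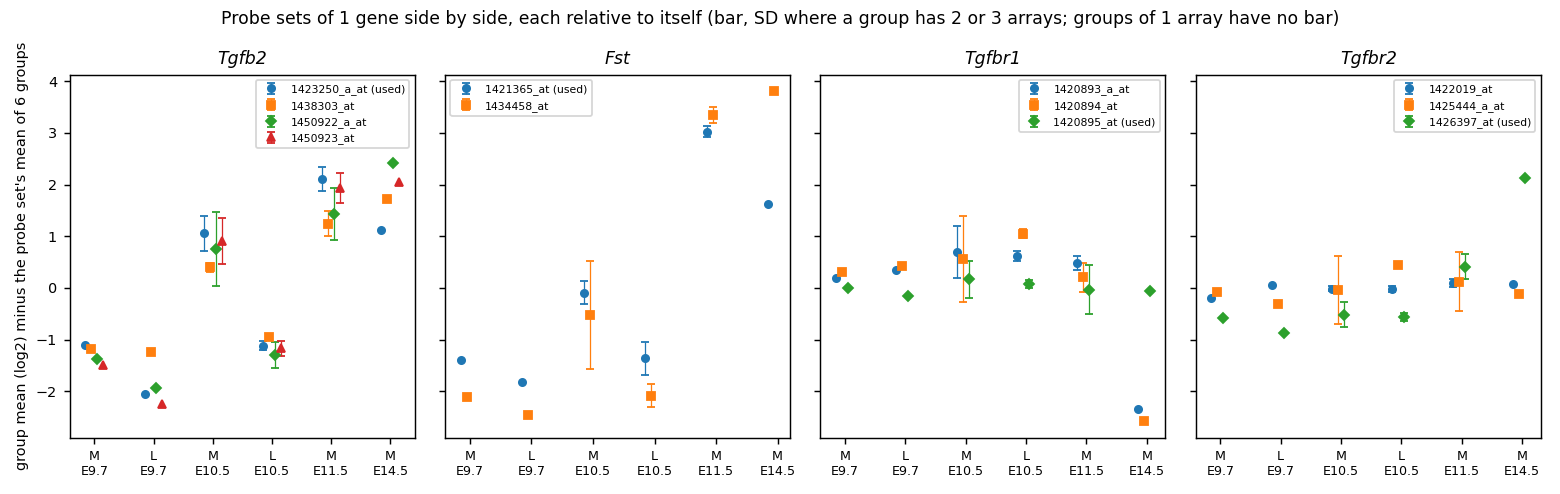
Group means of all probe sets of Tgfb2, Fst, Tgfbr1 and Tgfbr2 (log2, each minus the mean of its own 6 group means, y axis) by tissue and stage (x axis, M medial, L lateral); bars are SD over 2 or 3 arrays. The probe sets of each gene part at E14.5, where those of Tgfb2 differ from E11.5 by -0.98 to 0.99, and those of Tgfbr2 already differ at E11.5 against E10.5 (0.93 for 1426397_at, 0.16 for 1425444_a_at).

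Probe sets of the same gene disagreed at E14.5. For Fst, 1421365_at differed from E11.5 by -1.39 and 1434458_at by 0.47, so no direction is given for this gene. For Tgfbr1, 1420893_a_at differed by -2.81 and 1420894_at by -2.78, while the bright 1420895_at differed by -0.02. The 4 Tgfb2 probe sets ranged from -0.98 to 0.99. For Tgfbr2, the difference of 1.71 in 1426397_at stood beside -0.25 in 1425444_a_at, and for Tgfbr3 a difference of 0.89 in 1433795_at stood beside -0.78 in 1425620_at. Tgfb3 had a single probe set, and the 4 Tgfbi probe sets ranged from -0.36 to 0.35.

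Across the 6 groups, the members differed in how far their levels moved. Group means of the used probe set of Fst spanned 4.83, those of Tgfb2 4.16, Tgfb3 3.62, Tgfbi 3.00, Tgfbr2 2.99 and Tgfbr3 2.32. Tgfb1 spanned 1.71 and Inhba 1.22, whereas Inhbb spanned 0.41 and Tgfbr1 0.31. Other probe sets of these last genes moved further: group means lay between 3.61 and 6.64 for 1420893_a_at and between 3.86 and 7.49 for 1420894_at of Tgfbr1, each lowest at E14.5, and between 3.06 and 4.43 for 1426858_at of Inhbb. In medial tissue Tgfb2 measured 6.41 at E9.7, 8.57 ± 0.33 at E10.5, 9.62 ± 0.23 at E11.5 and 8.64 at E14.5, and its lateral levels were 5.47 at E9.7 and 6.41 ± 0.09 at E10.5. Ordered by level, lateral E9.7 was lowest, medial E9.7 and lateral E10.5 differed by less than the lateral SD, medial E10.5 and E14.5 differed by less than the E10.5 SD, and medial E11.5 was highest. That order is of the used probe set: the other 3 were highest at E14.5, with 6.90, 9.36 and 9.42 at E14.5, against 6.42, 8.38 and 9.29 at E11.5. In medial tissue Tgfb1 measured 6.93 at E9.7, 6.19 ± 0.51 at E10.5, 5.43 ± 0.27 at E11.5 and 5.21 at E14.5, of which the E11.5 and E14.5 levels differed by less than the E11.5 SD. Tgfbr2 stayed between 7.32 and 7.67 in the 4 groups of E9.7 and E10.5, then measured 8.59 ± 0.24 at E11.5 and 10.30 at E14.5.

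For each member that spanned at least 1 unit, the 3 tested genes most like it over the 11 arrays were listed by Pearson correlation. Predicted or unnamed transcripts were left out, and the list is a description of arrays that share stages and tissue. Closest to Tgfb2 were Lrrc17 (r = 0.982), Cmpk1 (0.981) and Mme (0.977). Tgfb3 ran closest to Alcam (0.994), Tcf7l2 (0.990) and Loxl1 (0.987), and Tgfbr2 to Vstm4 (0.992), Osbpl5 (0.987) and Smarca2 (0.987). Fst was nearest to Trim44 (0.989), Iqgap2 (0.978) and Camk1d (0.978), Tgfbi to Arhgap24 (0.987), Islr (0.981) and Rbms3 (0.979), and Tgfbr3 to Camk2n1 (0.985), Ank1 (0.985) and Col5a1 (0.976). Tgfb1 was nearest to Fam89a (0.933), Flt4 (0.922), a receptor of lymphatic and other endothelium, and Gse1 (0.906), and Inhba to Zcchc24 (0.942), Atp5k (0.940) and Smim3 (0.938). No member was among the nearest genes of another.

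The rest of the pathway was described from a list of 60 other genes, of which 56 were analysed here and 47 were tested. Between medial and lateral tissue at E10.5, 5 were called higher and 1 lower in medial tissue, beside 4.63% of all tested genes called and 2.82% called higher, with a list median of 0.11 against -0.01 over all tested genes. Ccn2, a matrix-associated protein induced by TGF-beta and other signals, measured 5.92, 7.08 and 6.63 in medial tissue, against 9.26, 9.05 and 9.41 in lateral tissue. It was 6.46-fold lower in medial tissue (difference -2.69 ± 0.29, adjusted p = 0.000941), the opposite direction to Tgfbi. Dcn, the matrix proteoglycan decorin that binds TGF-beta, measured 6.99, 7.33 and 7.77 in medial tissue, against 5.52, 5.72 and 5.27 in lateral tissue (difference 1.86 ± 0.22, adjusted p = 0.00156). Ccn2 and Dcn were the pathway genes whose calls survived leaving out each array.

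The other calls at E10.5 were smaller. The activin receptor Acvr2a differed by 0.69 ± 0.12 (adjusted p = 0.0109) and Acvrl1, a TGF-beta family receptor of endothelium, by 0.81 ± 0.17 (adjusted p = 0.0314). Skil, a repressor of Smad activity, differed by 0.62 ± 0.13 (adjusted p = 0.0287), and Tgfb1i1, the adaptor Hic-5, by 0.87 ± 0.17 (adjusted p = 0.0218). Each of these 4 lost its call in at least 3 of 6 fits that left out an array, and 2 pathway genes remained called without lateral replicate 2, lateral replicate 3 or medial replicate 2. None of the 5 intracellular transducers was called: Smad2 differed by 0.12, Smad3 by 0.29 and Smad4 by -0.34, with adjusted p of 0.694, 0.308 and 0.603.

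Between E11.5 and E10.5, 7 of the 47 were called higher and none lower by limma (13 and 3 at an unadjusted p under 0.05), beside 6.92% of all tested genes called and 4.32% called higher, with a list median of 0.10 against 0.003 over all tested genes. Acta2, smooth muscle actin, which early skeletal and heart muscle also express, measured 11.49 and 11.89 at E11.5, against 6.85, 6.34 and 7.03 at E10.5. Its difference of 4.95 ± 0.21 (adjusted p = 5.85e-06) stood beside the rise of the muscle markers given above. Of 9 tested genes that keep TGF-beta latent in the matrix or release it, 2 rose. Ltbp3, a latent TGF-beta binding protein, measured 7.51 and 7.55 at E11.5, against 6.24, 6.496 and 6.36 at E10.5 (difference 1.16 ± 0.12, adjusted p = 0.000503). Ltbp1 differed by 1.08 ± 0.22 (adjusted p = 0.0175), while Ltbp4 (1.12 ± 0.31, adjusted p = 0.0739) was not called.

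Gdf11, a ligand of the activin branch, differed by 0.74 ± 0.15 (adjusted p = 0.0169) and Acvr2a by 0.77 ± 0.13 (adjusted p = 0.00869). The cell cycle inhibitor Cdkn1a differed by 1.08 ± 0.19 (adjusted p = 0.00912), and Pmepa1, a TGF-beta target that dampens Smad signalling, by 0.60 ± 0.12 (adjusted p = 0.0216). Over the recomputed fits described below, Pmepa1 kept its call in 7 and lost it with unchanged sign in 8. Gdf11 kept its call in 11 and lost it in 5, and Ltbp1 kept it in 11 and lost it in 4. Without medial E11.5 replicate 2, 4 pathway genes were called, and the calls of Ltbp1, Acvr2a, Pmepa1 and Cdkn1a were lost. Smad2, Smad3 and Smad4 differed by 0.04, -0.07 and -0.23 and were not called, with adjusted p of 0.931, 0.882 and 0.798.

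**Figure D4:**
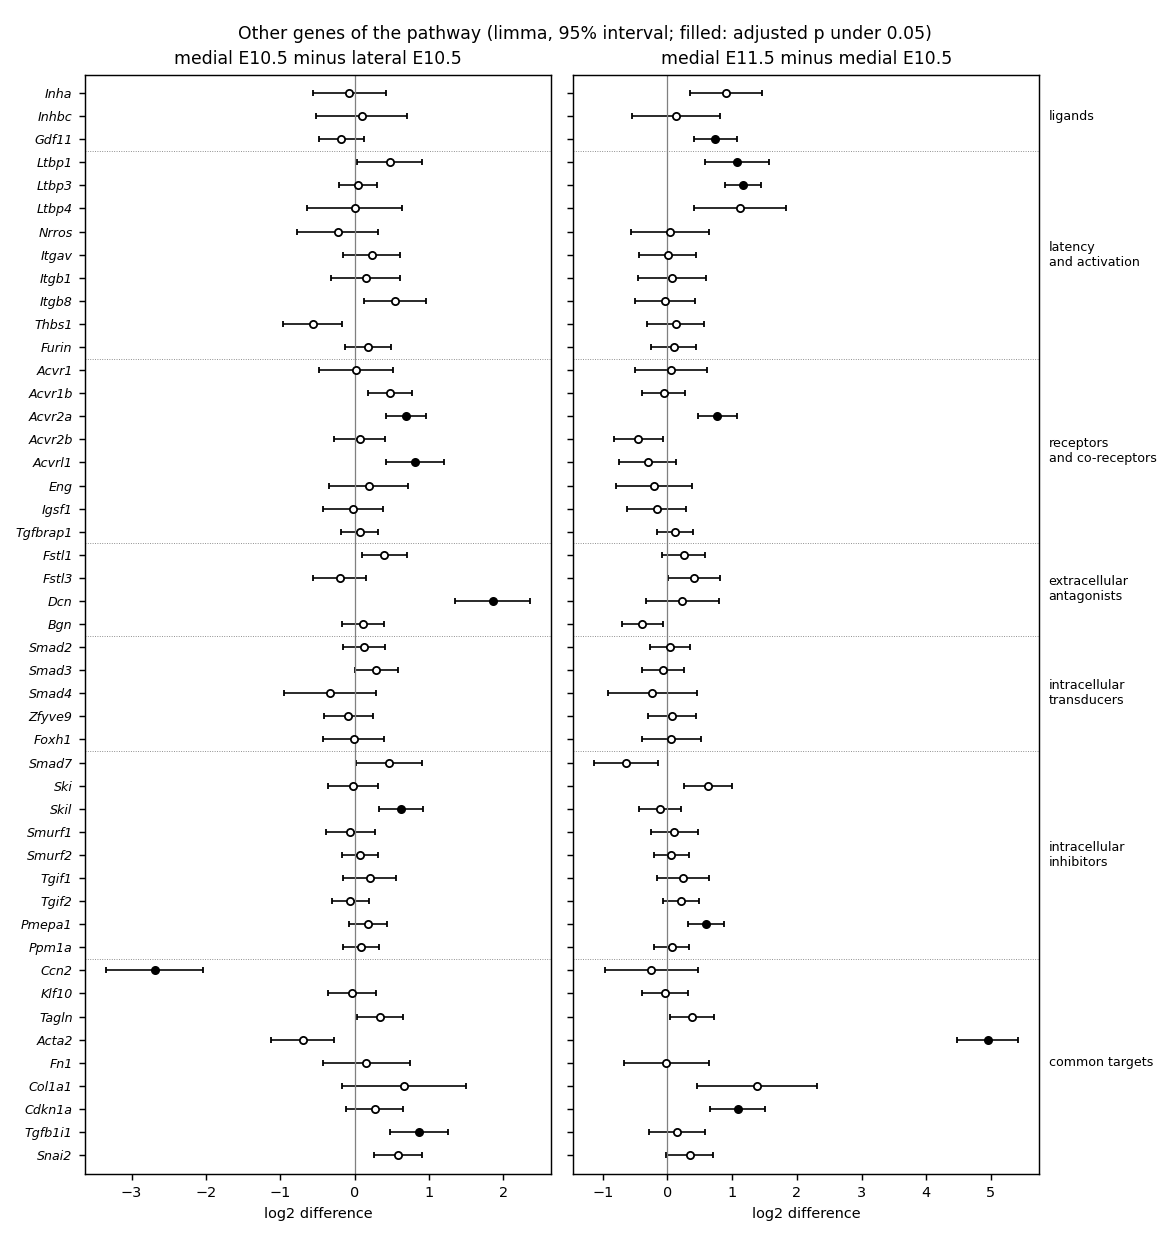
Log2 difference (x axis) of the 47 other tested pathway genes, ordered by role, for medial minus lateral at E10.5 (left) and medial E11.5 minus medial E10.5 (right); points are limma estimates, bars are 95% intervals, and filled points have an adjusted p under 0.05. Ccn2 (-2.69) and Dcn (1.86) stand out on the left and Acta2 (4.95) on the right; Smad2, Smad3, Smad4 and Smad7 are open points in both.

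In the untested comparisons, Col1a1, a collagen chain, was 2.06 higher and Tgfb1i1 1.56 higher in medial than in lateral tissue at E9.7, and Ccn2 differed by -1.47, the direction it had at E10.5. Between E10.5 and E9.7, Dcn differed by 2.29 and Tgfb1i1 by -1.48 in medial tissue, and in lateral tissue Col1a1 differed by 1.94. At E14.5, 11 of 48 pathway genes were more than 2-fold higher than at E11.5 and 2 were lower, beside 11% and 3.63% of all genes. Dcn differed by 2.94, the related proteoglycan Bgn by 2.62, Cdkn1a by 2.41 and the smooth muscle gene Tagln by 2.30. The 2 lower genes were Snai2, a factor of migrating mesenchyme (-1.57), and Tgif1, a Smad corepressor (-1.28).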

How the data were processed

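The deposited log2 signals came from Expression Console 1.1 of Affymetrix, per the submitters' processing notes. Its algorithm is not given in the sources used here, and base 2 was inferred from the range of the values, 0.0887 to 14.5. Probe sets were named from the array annotation, with symbols updated to RefSeq by Entrez ID for 34754 of them; 34958 carried 1 symbol, 932 several and 9211 none. Values were quantile-normalized over 11 arrays, and each gene was given by its single-symbol probe set of highest mean. Genes reaching the 50th percentile (4.86) on 2 or more of the 8 arrays in groups with replicates were tested with limma 3.58.1 in R 4.3.3, with 6 group means and 5 residual degrees of freedom, and p-values were adjusted by Benjamini-Hochberg over all 11968. The limma step was run on simulated data with independent noise and no arrays of low signal. That run cannot show how calls behave with the array differences described above.

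All 10 members are named. Other pathway genes are named where called (up to 8 each way) or, untested, among up to 4 each way with the largest difference past 2-fold; Smad2, Smad3, Smad4, Smad7 and Ltbp4 are named besides, after their values were seen. Members and lists were chosen with earlier results of these data known. Results were recomputed with other scalings, filters, probe set summaries and variance models, with array weights, with spike-in group or replicate number as terms, and without single arrays; their use on other pathway genes was added after the data were seen.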

Additional observations from a re-analysis of the deposited data

How the results depend on the processing

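Between medial and lateral E10.5 tissue, Tgfb2, Tgfbi and Fst kept direction and call under every alternative run except the values as deposited, where 0 members and 2 genes were called and the median of all genes shifted to -1.03. Genes called numbered 358 with each array centred on its median, 2833 with array weights (1325 higher and 1508 lower, against 338 and 216), 1254 with the spike-in group as a fixed effect, and 308 to 528 when leaving out 1 array. Members that were not called above changed sign: Tgfb1 was -0.48 as deposited. By limma, Tgfb1 was called higher with array weights (0.79, adjusted p = 0.00384) and with the spike-in group (0.93, adjusted p = 0.00354). Tgfb3 was 0.21 with array weights, 0.031 with the spike-in group and 0.055 without the arrays of low signal. It ranged from -0.14 to 0.12 when leaving out 1 array. Tgfbr1 was -0.85 as deposited, -0.10 with probe sets averaged and -0.050 to 0.29 when leaving out 1 array, and Tgfbr2 was -0.97, -0.15 and -0.028 to 0.18 in the same settings. Tgfbr3 was 0.069 when centred, 0.089 with the spike-in group, 0.053 without the arrays of low signal and -0.16 to 0.053 when leaving out 1 array, and Inhbb was 0.040 with the spike-in group and -0.12 to 0.11 when leaving out 1 array. As deposited, the pathway genes Acvr2a (-0.30), Acvrl1 (-0.34), Skil (-0.32) and Tgfb1i1 (-0.24) changed sign too.

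For E11.5 against E10.5, members called were 0 as deposited, 3 when centred, 5 with array weights, with probe sets averaged or with only the groups compared, and 2 to 8 when leaving out 1 array. Calls were lost by Tgfbi, Tgfbr2, Tgfbr3 and Inhba when centred, by Tgfb2 and Inhba with array weights, by Tgfb2 and Tgfbr2 with only the groups compared and by Tgfbr2 with probe sets averaged, where Inhba was too dim to test. Genes called were 1 as deposited, where the median of all genes was -0.66, 455 when centred, 482 with only the groups compared and 2182 with the spike-in group. The fit with the spike-in group also called Tgfb1. Tgfbr1 ranged from -0.54 to 0.13 when leaving out 1 array, and Pmepa1 was -0.070 as deposited. Of the other pathway genes, the 6 called between the tissues became 0 as deposited, 3 when centred, 17 with array weights and 16 with the spike-in group; the 7 called between the stages became 0, 6, 5 and 15, and 4 with only the groups compared.

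Members past 2-fold at E9.7 were 2 as deposited or centred and 0 with probe sets averaged; for E10.5 against E9.7 they were 0 in medial tissue as deposited, and 1 in lateral tissue as deposited or with probe sets averaged. Fst at E14.5 was 0.34 above E11.5 as deposited. The cause of these shifts was not tested, beyond the smaller number of arrays in fits that left some out. Same-numbered replicates of medial and lateral E10.5 correlated at 0.13, -0.29 and 0.48 in their deviations from the group means. Deviations within a group of 3 arrays depend on each other, so these values cannot decide whether the numbers mark pairs. With the replicate block, 779 genes and 3 members were called in that comparison, and 868 genes, 7 members and 11 pathway genes for E11.5. The 2 same-numbered pairs of E11.5 and E10.5 correlated at 0.59 and 0.39, where the 2 E11.5 arrays deviate by equal and opposite amounts. Precision is limited by 11 arrays, and detection calls were not used here.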
